A study of Mus musculus with 12 samples.

Results

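The mitochondrial protein import genes are taken here as the genes whose symbol begins with Tomm, Timm or Chchd followed by a digit, together with Samm50. Gene symbols were found through the RefSeq accession of each array probe. The array held 34 such genes among 19751 genes with a name, and 33 of them were well above background on enough arrays to be tested among 15370 genes. The group was chosen by its symbols after Tomm20 and Chchd4 had been selected on their log2 differences, which were higher with both sets of siRNAs than with control siRNAs, so the values of those siRNA comparisons are a description, no p is given for them, and the counts of genes past a threshold there support nothing. The one gene left untested was Tomm20l, a relative of Tomm20, which was well above background on 1 array, the second replicate of siRNA set 2. A further 3 symbols of the reference table fit the naming rule but had no named probe.

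The cells came from CD-1 mouse embryos, from the medial telencephalon. A vector for EGFPNLS, a green fluorescent protein directed to the nucleus, was electroporated at E11.5 (embryonic days) in all 4 groups, and GFP-positive cells were sorted 24 hours later, at E12.5. The groups received control siRNAs, the first or the second set of siRNAs for Dmrt3/Dmrta2, or, for Dmrta2 overexpression, an expression vector for that gene, with 3 replicates each on one-colour Agilent arrays. Dmrt3 and Dmrta2 are transcription factors of the dorsomedial telencephalon, and the study asked how their loss or gain changed gene expression. The control siRNAs were the only control, so no array here held an empty expression vector. The labels call the replicates independent but do not say whether each was a pool of embryos, so p-values measure the spread between these samples. In sorted cells measured in bulk, fewer cells of a type and less RNA per cell cannot be told apart.

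The 12 arrays lay on 3 slides, each slide holding 1 replicate of every group at a fixed position, so position and group cannot be told apart. Between 67.1% and 72.2% of spots per array were well above background. All 12 radial glia markers and all 10 markers of young neurons were well above background on every array. With both siRNA sets averaged, Dmrt3 stood at 53.5% of the control level and Dmrta2 at 72.7%, and neither passed limma's test (adjusted p = 0.161 and 0.207). On the arrays labelled Dmrta2 overexpression, the signal of the array probe for Dmrta2 was 71.0% of control (adjusted p = 0.595), which goes against that label. Whether the probe can detect the message made from the vector is not given in the sources used here, so directions drawn from those arrays rest on the label.

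Almost all mitochondrial proteins are made in the cytosol and carried into the organelle by a set of protein machines. The TOM complex forms the entry gate in the outer membrane, with Tomm20, Tomm22 and Tomm70a as receptors, Tomm40 as the channel and Tomm5, Tomm6 and Tomm7 as small subunits, and Samm50 inserts barrel-shaped proteins into that membrane. Small Tim chaperones escort hydrophobic proteins across the space between the membranes, the TIM23 and TIM22 complexes move proteins into or through the inner membrane, and Chchd4 (Mia40) traps small cysteine-rich proteins in the intermembrane space by forming disulfide bonds in them. The name Chchd describes a protein fold, and other Chchd proteins sit in the cristae-organizing complex or the mitochondrial ribosome, so the symbol rule reaches beyond import. In progenitors of the embryonic brain most of these genes are broadly active housekeeping genes.

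Start-site sequences are shown for Tomm20 and Chchd4, the pair whose RNA was higher with the siRNAs, and for Timm8b and Tomm22, whose RNA was not. RefSeq windows for the build GRCm38.p6, reaching from 250 bases before to 50 bases after each gene's start, were found for 29 of the 34 genes. These 29 genes had 31 windows, and the counts below are of genes. Only the 250 bases before the start are printed, and 13 strings of letters were searched for on both strands. Capitals mark the string GCGCA, any base, GCGC, written after the binding site of the factor NRF1 and here read on the opposite strand, so that its reverse complement is printed, in Tomm20 (chr8:126945922-126946171, minus strand) and Chchd4 (chr6:91473424-91473673, minus strand). They mark the string CCGGAAG, written after the site of ETS factors, in Timm8b (chr9:50603651-50603900, plus strand) and Tomm22 (chr15:79670618-79670867, plus strand), where a copy on each strand overlaps the other.
Tomm20: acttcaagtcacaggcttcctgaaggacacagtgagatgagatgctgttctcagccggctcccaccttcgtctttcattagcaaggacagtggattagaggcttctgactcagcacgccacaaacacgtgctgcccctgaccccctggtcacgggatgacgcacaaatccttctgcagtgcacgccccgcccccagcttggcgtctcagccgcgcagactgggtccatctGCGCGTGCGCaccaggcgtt
Chchd4: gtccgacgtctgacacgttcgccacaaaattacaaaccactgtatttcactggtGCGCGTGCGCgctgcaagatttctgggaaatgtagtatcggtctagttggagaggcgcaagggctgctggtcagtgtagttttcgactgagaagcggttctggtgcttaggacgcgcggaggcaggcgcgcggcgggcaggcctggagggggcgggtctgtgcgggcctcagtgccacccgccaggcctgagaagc
Timm8b: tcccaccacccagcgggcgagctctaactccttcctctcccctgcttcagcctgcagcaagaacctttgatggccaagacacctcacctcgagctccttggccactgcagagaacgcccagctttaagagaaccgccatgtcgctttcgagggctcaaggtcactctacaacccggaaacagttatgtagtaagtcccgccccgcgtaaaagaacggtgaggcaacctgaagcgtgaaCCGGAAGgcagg
Tomm22: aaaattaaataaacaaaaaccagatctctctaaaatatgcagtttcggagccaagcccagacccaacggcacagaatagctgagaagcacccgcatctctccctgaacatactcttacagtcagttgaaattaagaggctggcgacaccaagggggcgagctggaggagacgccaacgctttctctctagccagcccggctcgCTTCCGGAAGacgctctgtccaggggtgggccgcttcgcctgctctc

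The NRF1-type string began 20 bases before the start of Tomm20 and 196 bases before that of Chchd4. It was present in windows of 3 of the 29 genes, Tomm20, Chchd4 and Timm8b, and in 4.60% of 32851 promoters of the same length. These promoters include those of genes not tested here, and they are counted per promoter, not per gene. Of the tested genes with a window, 1193 had the string and 11019 did not. In Timm8b it lay after the start and is not printed, and Timm8b differed from control by -0.06 ± 0.11 (log2 difference ± SE) with the siRNAs. Over the 1193 tested genes with this string the median log2 siRNA difference was -0.02, and over the 11019 without it 0.00. Of the 1193 genes 12 were past the threshold, where 108 of all 15370 genes tested were (0.703%). Tomm20 and Chchd4, chosen on these differences, both have the string. The ETS-type string was present in windows of 11 of the 29 genes (37.9%) and in 8.86% of all promoters, but not in those of Tomm20 and Chchd4. Of the tested genes with a window, 2063 had it and 10149 did not.

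The pair was chosen for its siRNA differences, so these matches are a description. The same string with T as its free base was in windows of none of the 29 genes (0.971% of all promoters). A shorter form of that, GCATGCGC, was in those of 1 (2.71%). The E-box CACGTG was in 7, Tomm20 among them but not Chchd4 (7.15%). The GC box GGGCGG was in 12, with both Tomm20 and Chchd4 (35.7%), and the CCAAT box CCAAT was in 11, with neither (37.4%). These shares are over all promoters. Of the tested genes with a window, 7662 had the GC box and 4550 did not, and 5228 had the CCAAT box and 6984 did not. The E-box was present in 1317 of these tested genes and absent from 10895. The YY1-type strings AAGATGGCG and GCCATCTT, which overlap on opposite strands, were each in 1 (1.40% and 2.75%). TGACGTCA, a cyclic AMP response element, was in none (1.79%). The stress-response strings TTGCATCA, ATTGCATCA, which contains the former, and TTGATGC were in 1, 0 and 1 (0.895%, 0.192% and 2.01%). A match describes letters and not a bound site.

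Among the outer membrane genes Tomm20 stood alone in the size of its siRNA difference. All levels are log2 signals minus the 75th percentile of the array. Tomm20, which reads the targeting signal of arriving proteins, was at 2.53, 2.40 and 2.44 with control siRNAs. It was at 3.37, 3.11 and 3.29 with siRNA set 1 and at 3.50, 3.63 and 3.52 with set 2. All 6 siRNA arrays lay above all 3 control arrays, and the set 2 arrays lay above the set 1 arrays. On the arrays labelled Dmrta2 overexpression Tomm20 was at 2.62, 2.30 and 2.39, which spans the control values. The siRNA average exceeded control by 0.95 ± 0.10 (log2 difference ± SE, a 1.93-fold level). Set 1 alone exceeded it by 0.80 ± 0.12 (1.75-fold) and set 2 alone by 1.09 ± 0.12 (2.13-fold).

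A second, dimmer probe for Tomm20 gave the same picture from other spots of the same arrays. Its levels were 1.55, 1.53 and 1.50 with control siRNAs, 2.33, 2.21 and 2.35 with set 1, and 2.56, 2.78 and 2.58 with set 2. On the arrays labelled overexpression it read 1.65, 1.41 and 1.40. Its siRNA average difference was 0.94, against 0.95 for the brighter probe. Within slides 1, 2 and 3 the difference of the brighter probe was 0.91, 0.97 and 0.97.

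**Figure D1:**
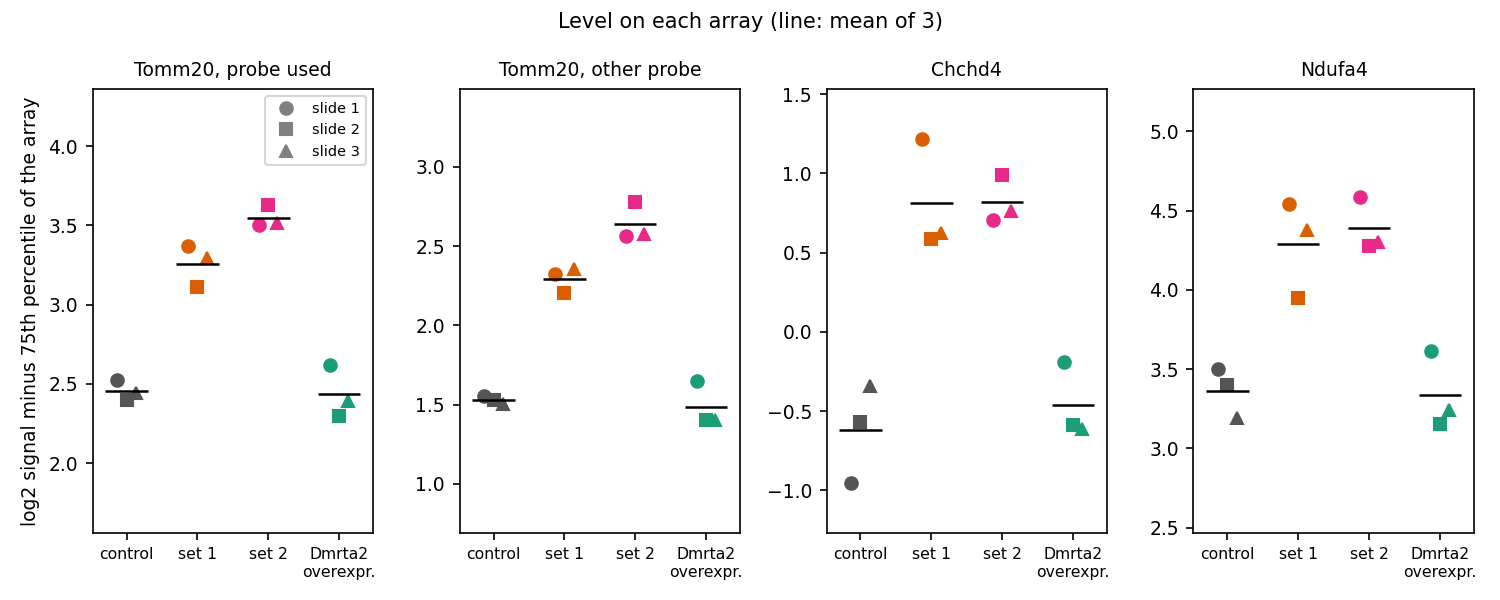
Level of Tomm20 (each of its probes), Chchd4 and Ndufa4 on every array, as log2 signal minus the 75th percentile of the array (vertical axes of equal span), by group (horizontal axis); symbols give the slide and lines the mean of 3 arrays. The siRNA arrays of set 1 and set 2 sit above the control arrays in all 4 panels, while the arrays labelled Dmrta2 overexpression lie near the control level.

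The other 9 genes tested in the outer membrane class, which takes in Tomm34 by its symbol, stayed near control in the siRNA average. They ran from -0.20 ± 0.14 (log2 difference ± SE) for Tomm6 to 0.12 ± 0.31 for Samm50. Tomm22, the central receptor that works beside Tomm20, differed by -0.05 ± 0.11. Tomm70a, the receptor for carrier proteins, differed by 0.06 ± 0.10, and the channel gene Tomm40 by 0.08 ± 0.13. Tomm5 and Tomm7, small subunits of the gate, differed by -0.07 ± 0.13 and -0.15 ± 0.14. Tomm40l, a relative of Tomm40, differed by 0.03 ± 0.08. Each of these intervals included 0.

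Tomm34, a cytosolic cochaperone of precursor proteins, moved in opposite directions in the siRNA and overexpression groups without passing a test. It read 2.57, 2.26 and 2.34 with control siRNAs, 2.33, 2.10 and 2.26 with set 1, and 2.22, 2.09 and 2.21 with set 2. On the arrays labelled overexpression it read 2.63, 2.57 and 2.79. The set 2 arrays lay below every control array, the set 1 arrays did not, and the arrays labelled overexpression overlapped the control range at their lower end. The siRNA average differed by -0.19 ± 0.10 and overexpression by 0.27 ± 0.12 (log2 difference ± SE; limma, adjusted p = 1.00). These comparisons share the control arrays.

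The small Tim chaperones lay near control in the siRNA average. Their median siRNA difference was -0.06 over 7 genes, from -0.17 ± 0.11 (log2 difference ± SE) for Timm10 to 0.14 ± 0.19 for Timm9, its partner in the soluble chaperone complex. Timm10 read 3.52, 3.28 and 3.42 with control siRNAs, 3.47, 3.12 and 3.15 with set 1, 3.32, 3.22 and 3.17 with set 2, and 3.49, 3.63 and 3.37 on the arrays labelled overexpression. Each treated group overlapped the control range. Timm8a1 and Timm13, which form a second chaperone complex, differed by -0.14 ± 0.13 and 0.03 ± 0.14. Timm8b differed by -0.06 ± 0.11 and Timm8a2 by 0.11 ± 0.19. Timm8a2 was dim on every array, at -5.84 to -5.02. The dimmest spots well above background lay at -6.98 to -6.01, depending on the array.

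Timm10b, the small Tim bound to the TIM22 complex, had the largest overexpression difference of this class, 0.12 ± 0.13 (log2 difference ± SE). Its levels were 3.71, 3.40 and 3.53 with control siRNAs, 3.45, 3.34 and 3.40 with set 1, 3.62, 3.60 and 3.40 with set 2, and 3.72, 3.82 and 3.46 on the arrays labelled overexpression. A second Timm10b probe gave -0.22 for overexpression, so its direction was not shared by the probes.

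The inner membrane translocases and their import motor likewise lay near control in the siRNA average, with a median of -0.02 over 8 genes. The TIM23 channel genes Timm23, Timm17a and Timm17b differed by -0.04 ± 0.10, -0.17 ± 0.09 and 0.09 ± 0.11 (log2 difference ± SE). Timm21 and Timm50, which connect TIM23 to the outer membrane gate, differed by -0.04 ± 0.10 and 0.06 ± 0.26. Timm44, the anchor of the import motor, differed by -0.17 ± 0.09. Timm22 and Timm29 of the carrier translocase differed by -0.002 ± 0.10 and 0.16 ± 0.20.

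Timm17a had the largest difference of this class in both comparisons. It read 3.58, 3.49 and 3.62 with control siRNAs, 3.37, 3.31 and 3.29 with set 1, 3.46, 3.50 and 3.39 with set 2, and 3.59, 3.52 and 3.29 on the arrays labelled overexpression. All set 1 arrays lay below all control arrays, and the highest set 2 array reached the lowest control array. Timm44 was the only other gene of the 33 whose set 1 arrays all lay below control, at 2.07, 2.22 and 1.96 against 2.48, 2.41 and 2.42. Over all genes tested, 7.09% had set 1 arrays wholly below control.

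Chchd4 was the other gene with higher levels under the siRNAs. It read -0.96, -0.57 and -0.34 with control siRNAs, 1.22, 0.59 and 0.62 with set 1, and 0.71, 0.99 and 0.77 with set 2. Every siRNA array lay above every control array, and the sets overlapped each other. On the arrays labelled Dmrta2 overexpression it read -0.19, -0.59 and -0.61, within or just above the control range. The siRNA average exceeded control by 1.44 ± 0.18 (log2 difference ± SE, a 2.71-fold level), set 1 by 1.43 ± 0.21 and set 2 by 1.44 ± 0.21. Within slides 1, 2 and 3 the siRNA difference was 1.92, 1.36 and 1.04, the first resting on the lowest control array. Chchd4 had a single probe, so no second probe could be set beside it.

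The other 7 Chchd genes differed by -0.11 ± 0.11 (log2 difference ± SE, Chchd7) to 0.11 ± 0.11 (Chchd1, a protein of the mitochondrial ribosome). Chchd3 and Chchd6, subunits of the cristae-organizing complex, differed by -0.01 ± 0.13 and 0.02 ± 0.15. Chchd2 and Chchd10, related proteins of the intermembrane space, differed by -0.02 ± 0.09 and -0.07 ± 0.17. Chchd5 and Chchd7 carry the cysteine pattern that Chchd4 oxidizes, and Chchd5 differed by 0.03 ± 0.12. Chchd10 read 0.74, 0.37 and 0.86 with control siRNAs, 0.45, 0.19 and 0.47 with set 1, 0.76, 1.03 and 0.62 with set 2, and 0.67, 1.27 and 0.68 on the arrays labelled overexpression. Its set 1 arrays lay below those of set 2 and those labelled overexpression, and every treated group overlapped the control range.

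Past limma's threshold of an adjusted p under 0.05 in the siRNA average were 2 of the 33 genes, Tomm20 and Chchd4, where 0.703% of all 15370 genes were. The same pair was past it for set 1 alone (0.215% of all genes) and set 2 alone (0.943%). The choice of the group used these comparisons, so nothing is read from the counts. The siRNA arrays all lay above the control arrays in the same 2 genes, which held for 3.29% of all genes. With set 2 alone, arrays lay wholly above control in 6 of the 33 genes: Chchd2, Chchd4, Timm17b, Tomm20, Tomm40 and Tomm70a. Tomm34 lay wholly below. No share over all genes is given for set 2, and the choice of the group used that comparison, so nothing is read from these counts. All 95% intervals of the other 31 genes in the siRNA average included 0, with standard errors of 0.08 to 0.31 on the log2 scale. For 25 of these 31 genes the whole interval lay within 0.5 of control on that scale. For the others, such as Samm50 and Timm50, it reached past 0.5 in this fit, which leaves out the slide. With slide as a block the standard errors of Samm50 and Timm50 were 0.16 and 0.11, against 0.31 and 0.26 without it. The median of the 33 genes was -0.01, against 0.00 for all genes tested. Leaving out control replicate 1 took Chchd4 out of the siRNA average calls, at a difference of 1.27. For set 2, Chchd4 was lost without control replicate 1 or 2 or any set 2 replicate. For set 1, both genes were lost without control replicate 1 or 3, any set 1 replicate, set 2 replicate 1 or 3, or overexpression replicate 3.

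**Figure D2:**
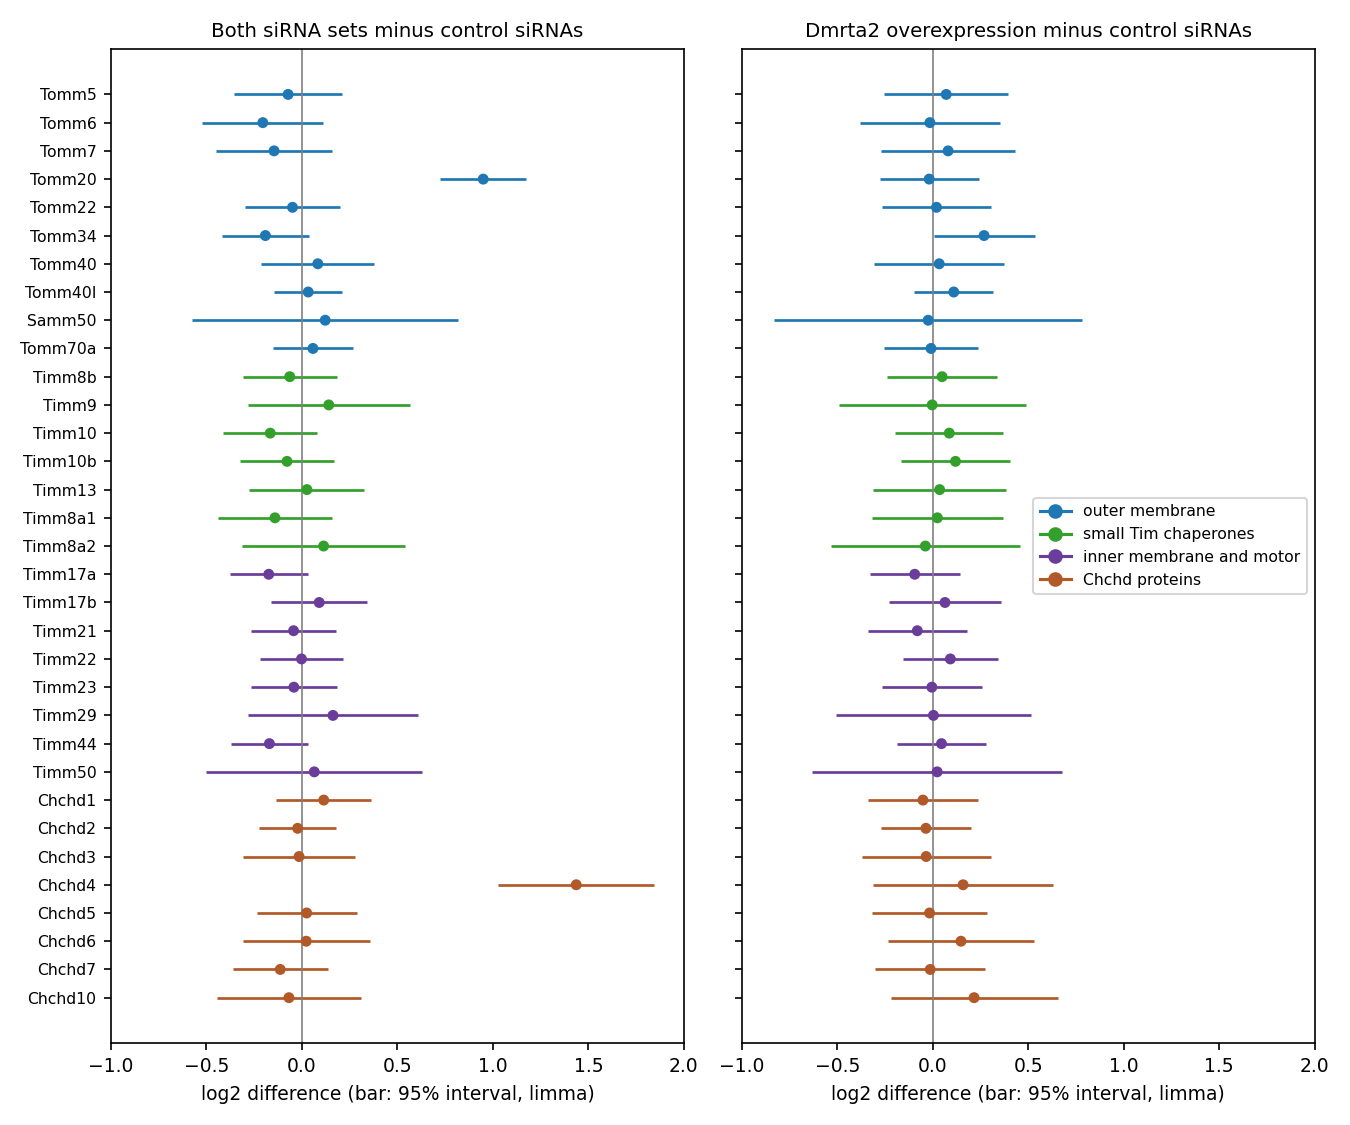
Log2 difference (horizontal axis) of each of the 33 tested genes (vertical axis), for both siRNA sets averaged minus control siRNAs (left) and Dmrta2 overexpression minus control siRNAs (right); dots are limma estimates, bars 95% intervals and colours the 4 classes. On the left Tomm20 at 0.95 and Chchd4 at 1.44 stand away from the other 31 genes, and on the right none does.

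Dmrta2 overexpression was a comparison that the choice of genes did not use, although it shares its control arrays with the siRNA comparisons. None of the 33 genes passed limma's test there, where 0.28% of all genes did. At an unadjusted p under 0.05 there was 1 of the 33, Tomm34, against 4.48% of all genes. Tomm20 differed by -0.02 ± 0.12 (log2 difference ± SE; limma, adjusted p = 1.00), with a 95% interval from -0.28 to 0.24. Chchd4 differed by 0.16 ± 0.21 (adjusted p = 1.00), with an interval from -0.31 to 0.63. Within slides, Chchd4 differed by 0.77, -0.02 and -0.27. The median of the 33 genes was 0.02, against 0.01 over all genes.

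Tomm40l was the only one of the 33 genes whose arrays labelled overexpression all lay above the control arrays, which held for 5.92% of all genes, and no gene of the group lay wholly below (1.71% of all genes). It differed by 0.11 ± 0.09. The group's values differed between slides. The median overexpression difference of the 33 genes was -0.03 on slide 1, 0.21 on slide 2 and -0.17 on slide 3.

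Between the siRNA sets, the import genes tended to read slightly higher with set 2, without any gene passing the test. Set 2 exceeded set 1 in 29 of the 33 genes, against 8354 of all 15370 genes, and the median difference was 0.12 on the log2 scale, against 0.02. All set 2 arrays lay above all set 1 arrays in 10 of the 33 genes (7.67% of all genes): Tomm20, Tomm5, Tomm70a, Timm17a, Timm17b, Timm23, Timm44, Chchd2, Chchd7 and Chchd10. None lay wholly below (6.27% of all genes). In limma's test 0 of 33 genes passed, as did 0.0781% of all genes, and 4 had an unadjusted p under 0.05, against 9.75% of all genes: Tomm20, Timm17b, Timm44 and Chchd6.

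Tomm20 was higher with set 2 than with set 1 by 0.29 ± 0.12 (log2 difference ± SE, 95% interval 0.03 to 0.55; limma, adjusted p = 0.453). Timm44 was higher by 0.36 ± 0.11 (adjusted p = 0.253) and Chchd10 by 0.44 ± 0.20 (adjusted p = 0.514). Chchd4 did not share this, at 0.01 ± 0.21 with an interval from -0.46 to 0.48. The median of the 33 genes was 0.08, 0.30 and 0.03 within slides 1, 2 and 3, and the array of set 1 on slide 2 had the brightest 75th percentile of all, 1143 against 572 to 859 on the others. Without that array the median was 0.099 and the Tomm20 difference 0.22. With quantile normalization in place of the 75th percentile the median was 0.07.

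**Figure D3:**
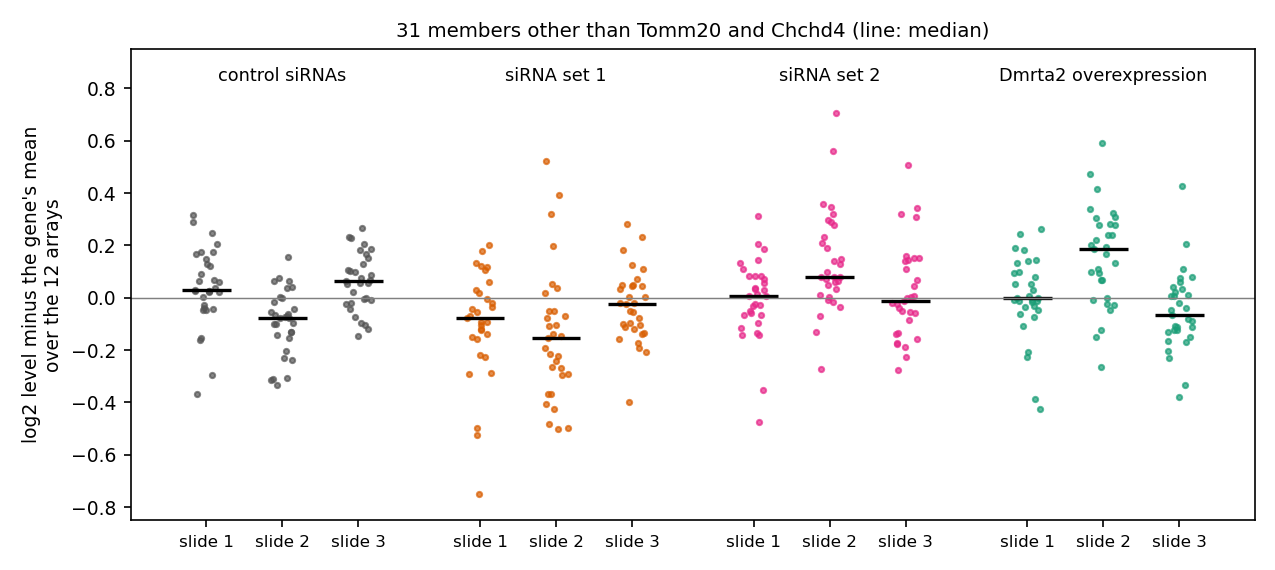
Level of the 31 genes other than Tomm20 and Chchd4 on each array, as the log2 level minus that gene's mean over the 12 arrays (vertical axis), by group and slide (horizontal axis); points are genes and lines medians. The medians lie between -0.16 (set 1, slide 2) and 0.19 (arrays labelled Dmrta2 overexpression, slide 2), and slide 2 holds both the lowest and the highest.

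The import genes were measured with less scatter than most genes. The median within-group SD was 0.14 on the log2 scale over the 33 genes and 0.24 over all genes tested, from 0.06 for Tomm40l to 0.49 for Samm50. Low scatter was not particular to them. In the siRNA average their median SE was 0.114, against 0.167 over all genes. Of the lists below, it was 0.118 for import partners and 0.115 for both respiratory chain and mitochondrial ribosome genes. It was 0.132 for biogenesis regulators and 0.207 for stress genes. Signal level was not matched. Among the 33 genes, 13 had further probes, 14 in all. The largest gap between a further probe and the one used was 0.23 on the log2 scale in the siRNA average (Chchd5), 0.29 for set 2 against control (Tomm40) and 0.43 for overexpression. The last was in Tomm7, whose second probe gave -0.35 where the probe used gave 0.08.

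Among import components outside the symbol rule, none passed the test with the siRNAs. Of 32 tested genes of the import motor, the processing peptidases, the disulfide relay, the cristae-organizing complex, matrix chaperones and porins, 0 were past limma's threshold in the siRNA average, and 1 had an unadjusted p under 0.05, as did 1842 of all 15370 genes. Their median log2 difference was -0.02. The largest was that of Trap1, a matrix chaperone, at 0.39 ± 0.24 (limma, adjusted p = 0.599). All 5 lists of mitochondrial genes outside the group were drawn up with earlier results of these data known.

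Among 91 tested genes matching the symbols of respiratory chain and ATP synthase subunits, which also catch some assembly factors, 1 passed the test, and it was higher. Ndufa4, a subunit of cytochrome c oxidase, read 3.50, 3.40 and 3.19 with control siRNAs, 4.54, 3.95 and 4.38 with set 1, 4.58, 4.28 and 4.30 with set 2, and 3.61, 3.15 and 3.24 on the arrays labelled overexpression. All siRNA arrays lay above all control arrays, and the arrays labelled overexpression overlapped control. The siRNA average exceeded control by 0.97 ± 0.16 (log2 difference ± SE; limma, adjusted p = 0.0308). Set 2 alone exceeded it by 1.02 ± 0.18 (adjusted p = 0.0372), set 1 alone by 0.92 ± 0.18 (adjusted p = 0.0747, or 0.0264 when blocked by slide), and overexpression differed by -0.03 ± 0.18 (adjusted p = 1.00).

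The Ndufa4 call in the siRNA average was lost when 1 of 8 arrays was left out (any control replicate, replicate 3 of set 1, any set 2 replicate, or replicate 3 of the arrays labelled overexpression). The differences then ran from 0.89 to 1.04. The median of the 91 genes was -0.06 for the siRNA average and 0.14 for set 2 minus set 1, beside 0.12 for the import genes. When blocked by slide, 4 of the 91 passed for set 2, named here after their values were seen: Ndufa4 and Uqcr11 were higher and Cox4i2 and Ndufs4 lower.

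The 77 tested genes of the mitochondrial ribosome held 0 genes past limma's threshold in the siRNA average and a median difference of -0.08. At an unadjusted p under 0.05 there were 4, against 1842 of all 15370 genes. Mrpl50, a large-subunit protein, had the largest difference, -0.42 ± 0.11 (log2 difference ± SE; limma, adjusted p = 0.136). It was -0.59 ± 0.13 for set 2 alone (adjusted p = 0.0676, or 0.0445 when blocked by slide). A second Mrpl50 probe gave smaller differences, -0.22 ± 0.16 in the siRNA average and -0.28 ± 0.18 for set 2 alone. In set 1 alone 74 of the 77 were below control, with a median of -0.15, beside 27 of the 33 import genes (median -0.08) and 7935 of all 15370 genes (median -0.01). The median for set 2 minus set 1 was 0.14, with 69 of 77 genes positive.

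Regulators of mitochondrial biogenesis held 0 genes of 14 past limma's threshold in the siRNA average, with a median of -0.04. At an unadjusted p under 0.05 there were 4, against 1842 of all 15370 genes. Tfam, which packages and transcribes mitochondrial DNA, was the farthest from control, at 1.17, 1.31 and 1.17 with control siRNAs, 1.65, 1.82 and 1.56 with set 1, 1.63, 2.12 and 1.68 with set 2, and 1.18, 1.19 and 1.02 on the arrays labelled overexpression. Its siRNA arrays all lay above the control arrays, and its arrays labelled overexpression reached the control range. The siRNA average differed by 0.53 ± 0.12 (log2 difference ± SE; limma, adjusted p = 0.0960, or 0.0336 when blocked by slide), and its other probes gave 0.57 and 0.63. Set 2 alone differed by 0.60 ± 0.14 (adjusted p = 0.0895, or 0.0318 when blocked by slide).

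Genes of the integrated and mitochondrial stress responses held 0 genes of 19 past limma's threshold in the siRNA average, with a median of -0.11. At an unadjusted p under 0.05 there was 1 gene, against 1842 of all 15370 genes. The largest difference was that of the secreted stress marker Gdf15, 0.75 ± 0.56 (log2 difference ± SE; limma, adjusted p = 0.689). In overexpression, none of the genes in these 5 lists passed limma's test, and 1 respiratory chain gene had an unadjusted p under 0.05.

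**Figure D4:**
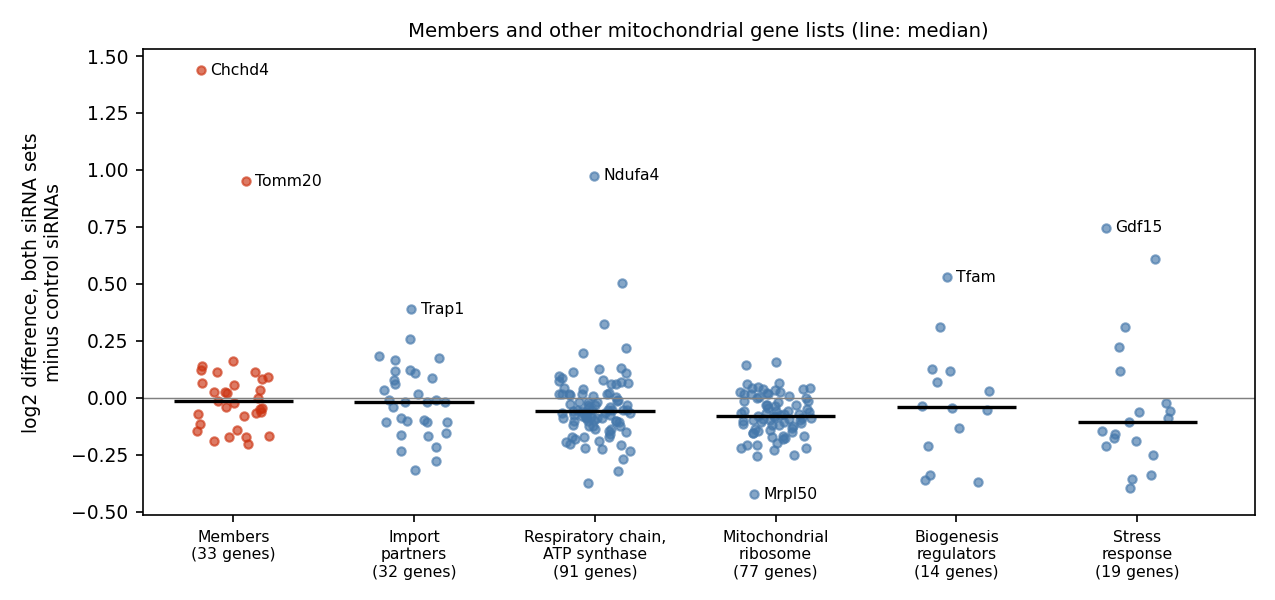
Log2 difference of both siRNA sets averaged minus control siRNAs (vertical axis) for the 33 import genes and 5 other mitochondrial gene lists (horizontal axis); points are genes and lines medians. Chchd4, Tomm20 and Ndufa4 lie near 1 or above, while every median lies between -0.11 and -0.01.

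The protein-coding genes next to the pair on the reference map were not past the threshold in the siRNA average. Beside Tomm20, Irf2bp2 differed by -0.24 ± 0.13 and Rbm34 by -0.10 ± 0.09 in the siRNA average (log2 difference ± SE). Beside Chchd4, Wnt7a differed by 0.05 ± 0.30 and Tmem43 by -0.06 ± 0.29. None of these neighbours passed limma's test (adjusted p = 0.525, 0.744, 0.976 and 0.970). One gene further out, Pard3 on the side of Tomm20 differed by -0.31 ± 0.12, and Xpc and Fbln2 around Chchd4 by 0.43 ± 0.23 and -0.74 ± 0.21 (adjusted p = 0.325, 0.529 and 0.169). Fbln2 was higher on the arrays labelled overexpression, by 1.49 ± 0.25 (adjusted p = 0.0432). Tarbp1, the second gene on the other side of Tomm20, was not tested.

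Markers of microglia and macrophages, cells that can be present in this tissue, were mostly higher than control in every treated group. Their median log2 difference from control was 0.80 with set 1, 1.71 with set 2 and 1.65 on the arrays labelled overexpression. Of 10 such genes tested, 5 were higher in the siRNA average (limma, adjusted p under 0.05; Aif1, C1qa, C1qc, Cx3cr1 and Tyrobp), 6 with set 2 and 0 with set 1, and 4 were higher on the arrays labelled overexpression. None of the listed genes was below background throughout. The mean log2 level of the list was -4.20 to -3.26 on control arrays, -3.19 to -2.92 with set 1, -2.62 to -2.16 with set 2 and -2.64 to -2.27 on the arrays labelled overexpression. The part of these markers in the siRNA differences was not tested.

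Erythroid markers held 0 genes of 8 past limma's threshold in the siRNA average, with 2 at an unadjusted p under 0.05. Over all genes, 1842 of 15370 were under that unadjusted p. Endothelial markers held 0 of 7, with 0 at an unadjusted p under 0.05 and Emcn and Tek below background on every array, and mesenchyme markers held 0 of 7, with 2 at an unadjusted p under 0.05. The mean log2 erythroid level was -3.87 to -3.36 on control arrays, -3.73 to -1.71 with set 1, -2.94 to -2.60 with set 2 and -2.93 to -2.32 on the arrays labelled overexpression. Radial glia markers held 0 of 12 past the threshold in the siRNA average, with 3 at an unadjusted p under 0.05 and a median of -0.14. When blocked by slide, 2 passed, Pax6 at 1.06 ± 0.27 (limma, adjusted p = 0.117, or 0.0376 blocked) and Slc1a3 at 0.82 ± 0.17 (0.0737, or 0.0364 blocked), named after their values were seen. The mean level of the list was 3.04 to 3.12 on control arrays, 3.18 to 3.22 with set 1 and 3.10 to 3.31 with set 2. Markers of young neurons held 0 of 10, with 1 at an unadjusted p under 0.05 and a median of 0.16. In set 1 the group means of all 10 were above control, as were 7435 of all 15370 genes. Their set 1 medians within slides 1, 2 and 3 were 0.35, -0.25 and 0.78. The mean level of the list was 1.49 to 2.39 on control arrays and 2.25 to 2.30 with set 1. The mean log2 mesenchyme level was -3.94 to -3.60 on control arrays and reached -0.69 on 1 array of set 1. Their part in the result was not tested.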

How the data were processed

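Each of the 12 samples was hybridised to 1 Agilent array with Cy3-labelled cRNA made from 0.1 ug of RNA, per the labels' protocols. The processed spot intensity came from Agilent Feature Extraction 10.5.1.1 (per the submitters' processing notes), with background subtraction inside each array and no scaling across arrays, per the file headers. The authors' deposited log2 table, made on a scale the labels do not describe, correlated above 0.999 on every array with these signals scaled to the 75th percentile and centred per probe, in the same direction. The array's annotation build was mm9, per the file headers.

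Control spots and outlier spots (136 to 218 of 43020 per array) were left out, log2 intensities were taken minus each array's 75th percentile, and replicate spots were averaged per probe. Saturation was marked on 0 spots. Of 39429 probes, 26055 were named through a RefSeq table (GRCm38.p6) and 13374 were not. Probes well above background on at least 3 arrays were kept, and the probe with the highest mean stood for its gene. The number of arrays limits the precision.

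Differences were fitted with limma 3.58.1 (lmFit, eBayes) in R 4.3.3 over all 12 arrays, two-sided, with Benjamini-Hochberg adjustment over 15370 genes. Fits were tested on simulated data. The slide equals the replicate number, so the numbers pair the arrays by slide, per the file headers. Deviations from group means correlated at 0.02 to 0.60 (median 0.33) for arrays of 1 slide and at a median of -0.16 across slides. The alternatives were another background correction, quantile normalization, the deposited table, other filters on dim probes, the mean of a gene's probes, a slide block and leaving out each array.

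The group of genes and all gene lists were chosen with earlier results of these data known. By rule, values on every array are given for Tomm20, Chchd4, any gene of the group past the threshold, and per class the gene with the largest difference in the siRNA average and in overexpression; those of Timm44 were added after its values were seen. Of other lists, genes past the threshold or, with none, the one with the largest difference were named. The normexp background correction used median spot and background intensities, as deposited in the scanner files, in place of mean signals, and left out spots with outlier marks; this was chosen after seeing the files.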

Additional observations from a re-analysis of the deposited data

How the results depend on the processing

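Under the 7 other settings (normexp, quantile normalization, the deposited values, no filter, a filter on all arrays, the mean of a gene's probes, slide as a replicate block), 2 genes of the group were past the threshold in each siRNA comparison and 0 in overexpression and in set 2 against set 1. The group was chosen on the siRNA differences, so this says nothing of their stability. The slide block changed no call of the group. Over these settings the siRNA average of Tomm20 ran from 0.94 to 0.98 and that of Chchd4 from 1.29 to 1.44. Quantile normalization moved the median of the 33 genes for set 1 from -0.0755 to -0.0296, with the cause not tested. Counts over all genes moved more: 37 with normexp and 37 without a filter, which tests more genes, against 108 for the siRNA average, and 234, 115 and 362 with the replicate block for the siRNA average, set 1 and set 2. Without a filter Ndufa4 had an adjusted p of 0.0539 in the siRNA average.

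Leaving out 1 array at a time gave 1 to 2 genes of the group past the threshold in the siRNA average, 0 to 2 for set 1 and 1 to 2 for set 2, with the same direction throughout. The median for set 1 then ran from -0.1186 to -0.0562. Over all single-gene values and settings, 808 kept their side of the threshold or moved by less than the spread, 41 were no longer past it, 4 were newly past it, 2 not past it moved by more than the spread, and none past it changed direction. In the fit without a slide block, differences above 0.5 on the log2 scale could be missed for the noisier genes such as Samm50. Its 95% interval in the siRNA average ran from -0.58 to 0.82. The standard error of Samm50 in the siRNA average was 0.31 in that fit and 0.16 with the block.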
